A study of Gallus gallus with 20 samples.

Results

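A set of 66 genes for cytosolic ribosomal proteins was followed through 4 groups of chicken (Gallus gallus) RNA sequencing libraries, out of 27170 genes in the deposited table. The genes were chosen by a rule on the symbol, with earlier results of these data known. The rule took rows named RPL, RPS or RPLP with a number and, for some, a closing letter such as A, X or L. The set held 35 genes of the large subunit, 23 of the small subunit, the 3 stalk genes RPLP0, RPLP1 and RPLP2, and the 5 paralogues RPL3L, RPL7L1, RPL22L1, RPL26L1 and RPS27L. Ribosomal proteins listed under another symbol, such as FAU, or without a symbol, such as RPS27, fall outside this choice.

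The ribosome joins a small subunit, which reads the messenger RNA, to a large subunit, which forms peptide bonds, and most of its proteins are present in a single copy. Ribosomal protein messengers are among the most abundant in most cells, and in vertebrates they share a pyrimidine tract at their start through which the mTOR pathway controls their translation. A few have paralogues with tissue-specific use, the best known being RPL3L, which takes the place of RPL3 in striated muscle of mammals.

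Liver and breast muscle (pectoralis major) were sampled from KRC chickens, a mixed-sex flock, in an organic and a conventional raising system that each took in 125 chicks and kept them in 5 pens. Organic birds ate feed made of organic ingredients and could go out to a Ruzi pasture from day 21, whereas conventional birds ate commercial feed indoors, and all were slaughtered at 91 days. Since feed and pasture differed as one, their effects cannot be told apart. The 4 groups were organic liver, conventional liver, organic breast muscle and conventional breast muscle, with 5 libraries each, and the labels give neither the pen of a library nor whether liver and muscle came from the same birds. The p-values therefore measure the spread between these libraries.

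Library totals ran from 14065269 to 15175691 counts in liver, except for organic replicate 1 with 20488526, and from 12699692 to 13417005 counts in breast muscle. The tissue labels held against markers: 11 measured hepatocyte genes summed to between 138818 and 245414 CPM (counts scaled to a common library size) in liver and between 312 and 1554 CPM in breast muscle. For 5 measured muscle fibre genes the sums were 0.929 to 7.10 CPM in liver and 95925 to 136551 CPM in breast muscle. In such bulk samples fewer cells of a type and less RNA per cell cannot be told apart.

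The share of library counts taken up by the 66 genes overlapped between all 4 groups. Their summed counts made up 2.09% ± 0.19 of the library in organic livers, 1.89% ± 0.21 in conventional livers, 2.0% ± 0.22 in organic breast muscle and 2.15% ± 0.49 in conventional breast muscle (SD, n = 5 each). The 5 organic livers were at 2.27%, 2.11%, 1.90%, 2.29% and 1.89%, and the 5 conventional livers at 1.59%, 2.0%, 1.99%, 1.75% and 2.10%. Organic breast muscle libraries were at 1.86%, 2.26%, 1.98%, 2.16% and 1.73%, and conventional ones at 2.88%, 1.70%, 1.76%, 2.38% and 2.04%. All 4 groups overlap, and the spread is widest in conventional breast muscle, which holds the highest of the 20 libraries.

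**Figure D1:**
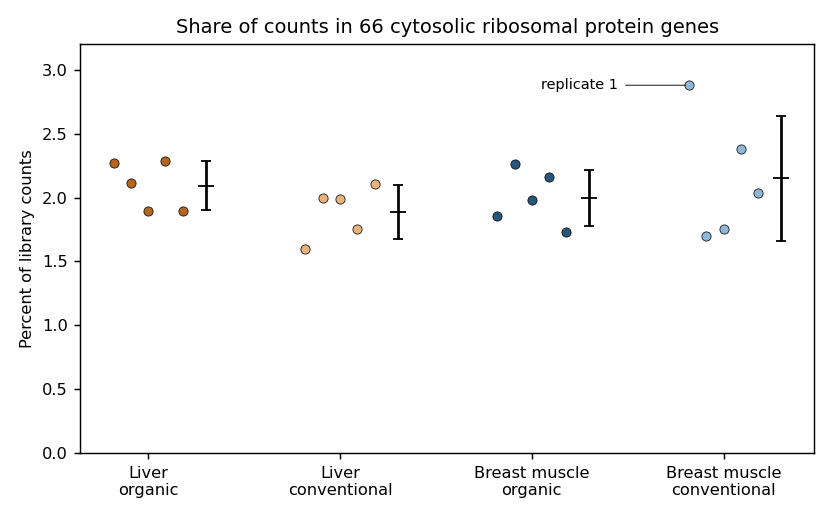
Percent of each library's counts in the 66 genes, by group. Points are libraries, bars are the mean ± SD of 5 libraries. Conventional breast muscle replicate 1, at 2.88%, is the highest of the 20 libraries and conventional liver replicate 1, at 1.59%, the lowest.

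Several libraries stood apart across nearly the whole set. By TMM-scaled CPM within the tissue, conventional breast muscle replicate 1 was the highest of the 10 muscle libraries for 44 of the 66 genes and conventional replicate 2 was the lowest for 54. Among the livers, organic replicate 1, the deepest library, was the highest of 10 for 48 genes and organic replicate 2 for 17, while conventional replicate 1 was the lowest for 52. In breast muscle the 3 libraries with the highest mean log2 CPM over the 61 genes other than the paralogues were organic replicate 2 and conventional replicates 1 and 4. They also had the highest summed fibroblast markers, at 15851, 9574 and 10169 CPM, against 4302 to 8655 CPM in the other muscle libraries (10 of 10 markers measured, none at 0 throughout). The same 3 libraries had the highest summed adipocyte markers, at 165, 231 and 195 CPM, against 81.2 to 145 CPM in the others (6 of 6 markers measured, none at 0 throughout). Conventional replicate 1 further had the highest endothelial sum, 204 CPM against 107 to 169 CPM in the other muscle libraries. The part of these markers and of depth in the results was not tested. Some of the results that rest on these libraries are given below with and without them.

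Levels per transcript length differed widely between the genes but in much the same order everywhere. The median over the 66 genes was 306 FPKM (fragments per kilobase, scaled by the authors for library size) in organic livers, 258 in conventional livers, 289.8 in organic breast muscle and 295 in conventional breast muscle. Between 42 and 46 of the 66 genes lay within 2-fold of that median, and 55 to 58 averaged over 100 FPKM. The gene with the highest mean over all libraries was RPLP1, an acidic stalk protein that helps recruit elongation factors, at 853 ± 152 FPKM in organic livers, 743 ± 46.7 in conventional livers, 932 ± 63.6 in organic breast muscle and 1008 ± 266 in conventional breast muscle (SD, n = 5 each). It was followed by RPS19, RPS10, RPS2 and RPS20 of the small subunit. The lowest was RPS21, a small subunit protein, at 25.2 ± 8.4 FPKM in organic livers, 17.1 ± 0.9 in conventional livers, 11.1 ± 2.7 in organic breast muscle and 12.4 ± 5.2 in conventional breast muscle, and the next lowest were RPL26, RPS27L, RPL7L1 and RPL22L1. Genes with a longer listed transcript had lower FPKM (Spearman rho -0.65 across the 66 genes, which are not independent replicates), with listed lengths of 366 to 4875 bases. FPKM divide the count by that same length, so part of this relation is built in. The order of levels therefore depends on the gene models. Of the 66 genes, 31 overlap another listed gene, often a small RNA gene, and their counts could include reads of it.

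Between raising systems that order was nearly the same: log2 FPKM correlated at r = 0.998 between organic and conventional livers and at 0.996 between organic and conventional breast muscle, across the 66 genes. Between liver and breast muscle this Pearson's r was 0.909 in organic and 0.913 in conventional birds over the 61 genes other than the paralogues. With the 5 paralogues included it was 0.539 and 0.584. Spearman's rho, which compares the order alone, fell less. It was 0.892 in organic and 0.881 in conventional birds over the 61 genes, and 0.832 and 0.822 over all 66. These correlations are across genes, which share libraries and gene models, and carry no test.

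The largest difference in the set lay in the RPL3 pair. RPL3, a core large subunit protein near the peptidyl transferase centre, was the dominant member in liver, and RPL3L, its muscle paralogue, the dominant one in breast muscle. RPL3L (chr14:6528969-6536325 in GRCg6a, minus strand) was at 0.181, 0.555, 0.241, 0.764 and 0.401 FPKM in the organic livers and at 0.282, 0.727, 0.626, 0.936 and 0.0394 FPKM in the conventional livers. It was at 997, 602, 653, 659 and 652 FPKM in organic breast muscle and at 691, 529, 753, 589 and 594 FPKM in conventional breast muscle. Every muscle library lay far above every liver library, and behind the liver values stood 5 to 19 counts per organic library and 1 to 20 per conventional library.

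RPL3 (chr1:50691560-50697388, plus strand) ran the other way. It was at 494, 483, 436, 445 and 407 FPKM in organic livers and at 421, 413, 418, 401 and 433 FPKM in conventional livers. In organic breast muscle it was at 75.1, 143, 112, 103 and 111 FPKM, and in conventional breast muscle at 162, 83.0, 73.8, 133 and 138 FPKM. All liver libraries exceeded all muscle libraries. In edgeR's quasi-likelihood test over 14447 genes, the log2 fold change of RPL3L, liver over breast muscle, was -10.66 ± 0.47 in organic and -10.23 ± 0.46 in conventional birds, and that of RPL3 was 2.08 ± 0.20 and 1.83 ± 0.20 (± SE throughout for log2 fold changes; Benjamini-Hochberg adjusted p under the threshold of 0.05 in all 4 cases).

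As a share of the pair's summed FPKM, RPL3L made up 0.0953% ± 0.0531 in organic and 0.127% ± 0.0888 in conventional livers. In breast muscle its share was 86.2% ± 4.38 in organic and 84.3% ± 4.42 in conventional birds (SD, n = 5 each). The liver and muscle shares differed in both systems by an exact two-sided permutation test (p = 0.00794 in each, the smallest that 5 against 5 allows, and 0.0265 adjusted over 20 tests of paralogue shares). Raising systems were not told apart: the organic minus conventional difference in breast muscle was 1.95 percentage points (exact permutation p = 0.556, adjusted 0.682).

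**Figure D2:**
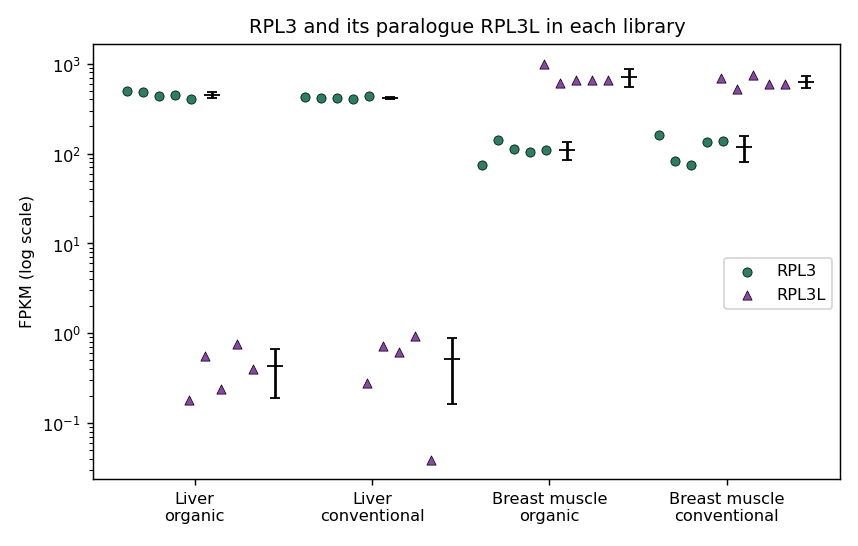
FPKM of RPL3 (circles) and RPL3L (triangles) in each library on a log axis, with the mean ± SD of 5 libraries. RPL3 is between 401 and 494 FPKM in liver and between 73.8 and 162 FPKM in breast muscle, whereas RPL3L stays under 1 FPKM in liver and is between 529 and 997 FPKM in breast muscle.

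No relation between the 2 genes passed within breast muscle. Over the 10 muscle libraries, a relation chosen after the values were seen, log2 CPM of RPL3L and RPL3 gave Pearson's r = -0.48 (permutation p = 0.163, adjusted 0.244 over 3 relations) and Spearman's rho = -0.33 (permutation p = 0.346, adjusted 0.518). Without the 2 libraries farthest from the median of RPL3L, r was -0.60, and with group means removed it was -0.46. The other relations were with the mean log2 CPM of the genes other than RPL3 and the paralogues. RPL3 gave Pearson's r = 0.70 with that mean (permutation p = 0.0241, adjusted 0.0724). RPL3L gave Pearson's r = 0.12 with it (permutation p = 0.731, adjusted 0.731).

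The other paralogues were expressed in both tissues and differed less. RPL26L1 (chr13:9856065-9860391, plus strand), a close relative of RPL26 that lies just upstream of it (chr13:9861486-9871095, plus strand), carried most of its pair: 92.8% ± 0.961 of summed FPKM in organic livers, 91.7% ± 0.411 in conventional livers, 89.8% ± 1.03 in organic breast muscle and 91.0% ± 3.29 in conventional breast muscle. The sources used here name no counting rule, so reads of so similar a pair could have been split, and its shares are uncertain. The liver share was above the muscle share in organic birds (exact permutation p = 0.00794, adjusted 0.0265), and in conventional birds the difference was 0.681 percentage points (exact permutation p = 0.675, adjusted 0.75).

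RPS27L, a paralogue that is a p53 target in mammals, was the smaller partner of RPS27. Its share was 6.22% ± 1.5 in organic livers, 5.76% ± 1.18 in conventional livers, 10.9% ± 1.61 in organic breast muscle and 10.8% ± 1.84 in conventional breast muscle (SD, n = 5 each). Every liver library was below every muscle library of its own system, and both tissue differences passed (exact permutation p = 0.00794, adjusted 0.0265 each). In organic birds the adjusted p by exact permutation was 0.0529 when any of the 5 organic muscle libraries was left out. The remaining libraries of the tissues still did not overlap. Leaving out an organic liver library also makes the group sizes unequal, but there the call kept its side of the threshold. Unequal sizes alone therefore do not account for the change. Organic liver replicate 1, at 8.767%, lay close to the lowest organic muscle library, at 9.102%, and the next highest organic liver was at 6.397%. The part of that liver library in the change was not tested. RPL7L1 was the reverse, with a share of the RPL7 pair of 19.0% ± 1.63 in organic livers, 17.5% ± 2.46 in conventional livers, 12.4% ± 2.62 in organic breast muscle and 12.1% ± 3.64 in conventional breast muscle. That tissue difference passed in organic birds (exact permutation p = 0.00794, adjusted 0.0265) and missed in conventional birds (exact permutation p = 0.0238, adjusted 0.0680).

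RPL22L1 was the most variable of the paralogues within breast muscle. It is the partner of RPL22, whose protein in mouse lowers RPL22L1 messenger. Its level was 104, 84.5, 60.1, 65.9 and 55.2 FPKM in organic livers and 44.7, 47.5, 61.8, 50.8 and 48.4 FPKM in conventional livers. Breast muscle held 89.0, 93.1, 72.0, 53.2 and 65.3 FPKM in organic and 150.4, 52.9, 196, 101 and 37.4 FPKM in conventional birds, so that the conventional muscle libraries included both the highest and the lowest of all 20. Its share of the RPL22 pair was 28.4% ± 3.96 in organic and 24.7% ± 1.91 in conventional livers (exact permutation p = 0.0635, adjusted 0.159), and 32.5% ± 4.24 in organic and 38.4% ± 15.5 in conventional breast muscle (exact permutation p = 0.492, adjusted 0.656).

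In liver, nearly all of the genes leaned to the organic side, and none passed the test. By edgeR's quasi-likelihood test, 0 of the 66 genes were past an adjusted p of 0.05, as were 0 of all 13186 genes tested (0%). A log2 fold change, organic over conventional, above 0 was found for 65 of the 66, against 47.7% of all genes, and it was above 0 for all 35 large subunit, 23 small subunit and 3 stalk genes and for 4 of the 5 paralogues. The medians were 0.26 for the large subunit, 0.25 for the small subunit, 0.21 for the stalk, 0.32 for the paralogues and -0.01 for all genes. At an unadjusted p under 0.05 there were 8 of the 66, each higher in organic livers, against 3.59% of all genes higher and 3.97% lower, and DESeq2 called 0 of the 66 and 32 genes in all. These counts are not independent of each other, since the genes vary together. The summed fibroblast and stellate cell markers averaged 364 ± 69.8 CPM in organic and 488 ± 70.5 CPM in conventional livers (SD, n = 5 each). Organic replicate 1, at 420 CPM, was the only organic liver above the lowest conventional one, at 416 CPM. In breast muscle, by contrast, the libraries highest in the set had the highest such sums, as given above. Other marker sums also had unlike means in liver, such as the erythrocyte sum (8 of 11 markers measured), at 512 ± 332 CPM in organic and 365 ± 161 CPM in conventional livers. All 10 fibroblast and stellate cell markers were measured and none was at 0 throughout. No test was run on the marker sums, and their part in the lean was not tested.

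RPL22L1 had the smallest p of the set, with a log2 fold change of 0.53 ± 0.17 (edgeR adjusted p = 0.625) and all 5 organic livers above the conventional mean, although the groups overlap. RPS21 was next. It was at 37.2, 30.5, 20.6, 21.0 and 16.7 FPKM in organic livers and at 17.2, 16.4, 16.1, 18.4 and 17.3 FPKM in conventional livers, with a log2 fold change of 0.54 ± 0.18 (edgeR adjusted p = 0.625). Organic replicates 1 to 4 lay above every conventional liver and replicate 5 lay among them.

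RPL37, a small zinc-binding protein of the large subunit, was at 329.8, 272, 266, 230.4 and 193 FPKM in organic livers and at 182, 192, 183, 210.1 and 206 FPKM in conventional livers, a log2 fold change of 0.39 ± 0.14. RPL29, a large subunit surface protein that was next by p, was at 196, 154, 136, 134 and 101 FPKM in organic livers and at 82.2, 98.5, 102, 104 and 130.4 FPKM in conventional livers. In both genes organic replicate 5 lay among the conventional livers. RPL36, another large subunit protein, was at 406, 345, 325, 329.6 and 244 FPKM in organic livers and at 264, 253, 246, 275 and 264 FPKM in conventional livers, with a log2 fold change of 0.33 ± 0.13 and an adjusted p by edgeR of 0.633. Organic replicate 5 was the lowest of the 10 livers here.

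RPL32 was the only gene of the set whose liver groups did not overlap, 1 of 66, where 0.561% of all genes did not overlap with organic higher. It was at 338, 313, 244, 261 and 228 FPKM in organic livers and at 172, 219, 226, 223 and 223 FPKM in conventional livers, and was named after its values were seen. The gap between the lowest organic and the highest conventional library was small.

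On TMM-scaled CPM within the tissue, the lean was carried by 4 of the 5 organic livers. As shares of all library counts, organic replicates 3 and 5 were alike, at 1.90% and 1.89%, against a conventional mean of 1.89%. Scaled by total counts alone, 64 of 66 genes were above 0, with a median of 0.17. The counts per library that follow are on TMM-scaled CPM. Organic replicates 1, 2, 3 and 4 exceeded the conventional mean in 65, 66, 62 and 63 of the 66 genes, and organic replicate 5 in 19. Without organic replicate 1 the median of the 66 log2 fold changes was 0.18, without conventional replicate 1 it was 0.22, and without organic replicate 5 it was 0.32. Relative to the summed counts of the 66 genes themselves, which removes what they share, 39 of 66 were above 0, the median was 0.02, and the values ran from -0.48 for RPL3L to 0.28. Again 0 of the 66 passed under that scaling, as did 0 of all genes (0%).

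At the low end of this comparison, RPL26 was at 0.06 ± 0.10 and RPL3 at 0.10 ± 0.12, and RPL3L, on its few liver counts, was at -0.29 ± 0.63, the only value under 0.

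**Figure D3:**
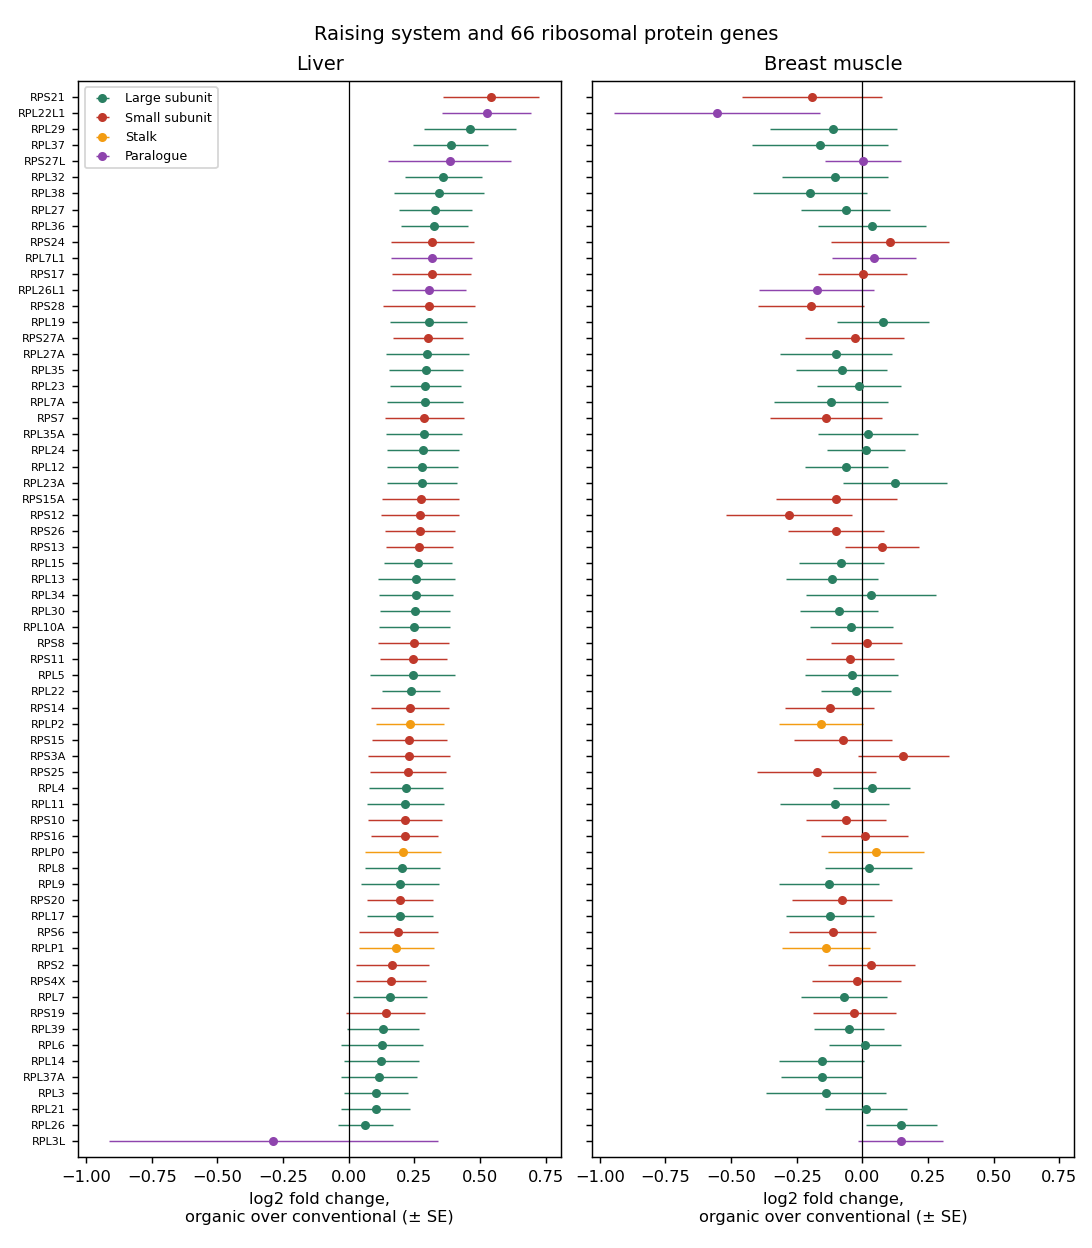
Log2 fold change, organic over conventional, of each of the 66 genes in liver (left) and breast muscle (right), coloured by class and ordered by the liver value. Bars are the SE calculated from edgeR's F statistic. In liver 65 of 66 points are above 0 and in breast muscle 22 are, and no gene passes an adjusted p of 0.05 in either.

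In breast muscle no such lean was seen and no gene passed. By edgeR, 0 of 66 genes and 0 of all 12496 genes tested (0%) were past an adjusted p of 0.05, and at an unadjusted p under 0.05 there were 0 of 66, against 3.36% of all genes higher and 4.11% lower. DESeq2 called 0 of the 66 and 15 genes in all. The log2 fold change was above 0 for 22 of 66 genes, against 48% of all genes, with a median of -0.06 against -0.01. Without conventional replicate 1 it was above 0 for 56 of 66 with a median of 0.06, and without any other library for 6 to 29, so the direction rests on that library. Scaling by total counts alone left 7 of 66 above 0.

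The smallest p belonged to RPL22L1, at -0.55 ± 0.39 (edgeR adjusted p = 0.748). RPS12, a small subunit protein, was at 267, 379.6, 269, 305 and 228 FPKM in organic breast muscle and at 543, 217, 235, 407 and 326 FPKM in conventional breast muscle, a log2 fold change of -0.28 ± 0.24. Its conventional values enclose the organic ones. RPL26 was at 0.15 ± 0.14, RPL37A at -0.16 ± 0.15 and RPLP2, a stalk protein, at -0.16 ± 0.16. RPL3 was at -0.14 ± 0.23 and RPL3L at 0.15 ± 0.16, and the RPL3 value was 0.00223 without conventional replicate 1. None of these passed the test.

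The difference between the tissues in the organic effect was tested over all 20 libraries. By edgeR, 0 of 66 genes and 0 of 14447 tested (0%) passed an adjusted p of 0.05, and 2 of 66 had an unadjusted p under 0.05 with the liver effect higher, against 2.69% of all genes higher and 2.64% lower. DESeq2 called 0 genes. The difference, liver minus breast muscle, was above 0 for 64 of 66 genes, against 51.3% of all genes, with a median of 0.31 against 0.01. Without conventional breast muscle replicate 1 the median of the 66 was 0.17, and without replicate 2 it was 0.40. RPL22L1 had the largest value, 1.09 ± 0.45 (edgeR adjusted p = 0.925), followed by RPS21 at 0.75 ± 0.35, and RPL38, RPLP2 and RPS12 were at 0.56 ± 0.29, 0.40 ± 0.21 and 0.56 ± 0.30. The liver and muscle effects were thus not shown to differ for any gene of the set.

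Some of the ribosomal protein messengers differed between liver and breast muscle. The shares called were under those of all genes, except for lower calls in conventional birds on TMM scaling and in some alternatives. In those birds DESeq2 called 28 of 66 lower, against 5209 of all 14447 genes. Relative to the summed counts of the 66, the lower calls there were under the share of all genes. On total counts they were at about that share, with 21 of 66 against 4624 of all 14447 genes. On TMM scaling, edgeR called 13 of 66 genes higher and 11 lower in organic liver than in organic breast muscle, against 39.1% and 35.6% of all 14447 genes. In conventional birds 2 were higher and 28 lower, against 37.5% and 35.6%. The median log2 fold change of the 66, liver over breast muscle, was 0.06 in organic and -0.26 in conventional birds, against 0.10 and 0.06 over all genes. It was above 0 for 40 of 66 in organic and 19 of 66 in conventional birds, against 52.6% and 51.4% of all genes. The tissues did not overlap for 5 higher and 9 lower genes of the 66 in organic birds, against 30.8% and 28.9% of all genes, and for 1 higher and 14 lower in conventional birds, against 31.1% and 30.2%. Scaling by total counts moved the medians of all genes to 0.23 and 0.19. It gave 21 higher and 7 lower in organic birds, against 6020 and 4664 of all 14447 genes. In conventional birds it gave 8 higher and 21 lower, against 5838 and 4624 of all genes. On TMM scaling without conventional breast muscle replicate 1 the conventional counts were 5 higher and 19 lower, against 5416 and 5068 of all genes. Without replicate 2 they were 2 and 34, against 5368 and 5059 of all genes. The difference between the systems is the difference in organic effect tested above, where no gene passed.

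Both systems shared the calls of RPL3 and RPL35A as higher in liver and of 11 genes as lower, where 34.9% of all genes were called higher in both and 32.8% lower in both. The 11 were RPL3L, RPL8, RPL23, RPL26 and RPL37A of the large subunit, RPLP0 of the stalk and RPS2, RPS10, RPS20, RPS26 and RPS28 of the small subunit. To set aside the level of the whole set, each gene was also scaled to the summed counts of the 66. That sum includes RPL3L, which lowers the other genes in muscle relative to it. Without RPL3L the share of counts was 1.90% in organic and 2.06% in conventional breast muscle, in place of 2.0% and 2.15%. So scaled, 21 genes were higher and 10 lower in organic liver than in organic muscle, against 38% and 31.8% of all genes, and 18 were higher and 9 lower in conventional birds, against 42.2% and 27%. Of these, 18 higher and 7 lower calls were common to both systems, against 36.4% and 26.1% of all genes. The 18 were RPL3, RPL11, RPL14, RPL19, RPL22, RPL24, RPL27, RPL27A, RPL35A, RPL36 and RPL7L1 and the small subunit genes RPS3A, RPS6, RPS13, RPS14, RPS15A, RPS16 and RPS21. The 7 were RPL3L, RPL37A, RPS2, RPS10, RPS20, RPS26 and RPS28. The 2 systems share no library in these comparisons, but both were fitted together over all 20 libraries. Their tests therefore share the estimate of spread for each gene, and the common calls are not independent of each other.

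RPS28, a small subunit protein at the messenger exit side, had the largest deficit in liver after RPL3L. It was at 145, 127, 91.1, 99.8 and 71.7 FPKM in organic livers and at 323, 270.3, 229.5, 359.7 and 267 FPKM in organic breast muscle. In conventional birds it was at 77.5, 74.4, 93.7, 84.5 and 96.9 FPKM in liver and at 419, 205, 344, 409 and 251.6 FPKM in breast muscle. The tissues did not overlap in either system, and the log2 fold change was -1.41 ± 0.21 in organic and -1.92 ± 0.21 in conventional birds (edgeR adjusted p under the threshold in both).

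RPS2, which lines the messenger entry, lies on chromosome 14 next to RPL3L on the same strand (chr14:6539294-6541961) and overlaps NDUFB10 on the other strand, so that its count may hold reads of that gene. It was at 614, 606, 543, 461 and 426 FPKM in organic livers and at 905, 828, 795, 869 and 702 FPKM in organic breast muscle. Conventional birds had 438, 515, 470.3, 436 and 473 FPKM in liver and 986, 547, 918, 816 and 665 FPKM in breast muscle, and the tissues did not overlap. The log2 fold change was -0.60 ± 0.16 in organic and -0.75 ± 0.16 in conventional birds.

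RPS10 and RPS20, 2 proteins of the small subunit head that human ZNF598 marks with ubiquitin on stalled ribosomes, were lower in liver by similar amounts. RPS10 was at -0.54 ± 0.15 in organic and -0.83 ± 0.15 in conventional birds, and RPS20 at -0.45 ± 0.17 in organic and -0.73 ± 0.17 in conventional birds. RPS26, near the messenger exit, was at -0.39 ± 0.17 in organic and -0.77 ± 0.17 in conventional birds, and RPL37A, a large subunit zinc-binding protein, at -0.47 ± 0.15 in organic and -0.75 ± 0.15 in conventional birds. The tissues did not overlap for any of these 4 genes in either system. In organic birds the edgeR adjusted p was 0.0374 for RPS26 and between 0.0579 and 0.105 without organic liver replicate 3, 4 or 5 or organic muscle replicate 1, 2 or 3. For RPS20 it was 0.0194, and 0.0548 without organic liver replicate 5 and 0.0551 without organic muscle replicate 2. RPL26, at 18.3 to 22.7 FPKM in organic and 17.2 to 21.6 FPKM in conventional livers against 28.4 to 38.2 FPKM in organic and 23.2 to 34.4 FPKM in conventional breast muscle, was at -0.65 ± 0.12 in organic and -0.58 ± 0.12 in conventional birds on TMM scaling. Relative to the 66 genes it was at -0.60 ± 0.18 in organic birds, which passed, and at -0.32 ± 0.18 in conventional birds (edgeR adjusted p = 0.114).

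Among the genes higher in liver, RPS21 and RPL35A followed RPL3. RPS21 was at 16.7 to 37.2 FPKM in organic and 16.1 to 18.4 FPKM in conventional livers, against 7.73 to 14.8 FPKM in organic and 7.10 to 18.3 FPKM in conventional breast muscle. Its log2 fold change was 1.21 ± 0.25 in organic birds, which passed, and 0.46 ± 0.25 in conventional birds (edgeR adjusted p = 0.0942, and 0.0326 without conventional muscle replicate 1 or 0.0280 without replicate 4), and relative to the 66 genes it passed in both, at 1.23 ± 0.18 and 0.84 ± 0.18. RPL35A, a large subunit protein mutated in some human Diamond-Blackfan anaemia, was at 279, 286, 219.8, 235 and 169 FPKM in organic livers and 149.9, 169, 117, 141 and 117 FPKM in organic breast muscle. In conventional birds it was at 175, 195, 205, 201 and 186 FPKM in liver and 156, 82.8, 127, 183 and 121 FPKM in breast muscle, with log2 fold changes of 0.80 ± 0.18 in organic and 0.53 ± 0.18 in conventional birds, both past the threshold in edgeR.

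RPL14, RPS15A, RPL7L1, RPS6 and RPL19 completed the 8 genes most shifted to liver. RPS6, the small subunit protein phosphorylated by S6 kinase downstream of mTOR, was at 593 to 928 FPKM in organic and 577 to 678 FPKM in conventional livers, against 441 to 579 FPKM in organic and 390.3 to 727 FPKM in conventional breast muscle. Relative to the 66 genes it was at 0.61 ± 0.14 in organic and 0.58 ± 0.14 in conventional birds, and RPL14 was at 0.65 ± 0.14 in organic and 0.66 ± 0.14 in conventional birds. RPS15A was at 0.68 ± 0.15 in organic and 0.61 ± 0.15 in conventional birds, RPL7L1 at 0.60 ± 0.20 in organic and 0.55 ± 0.20 in conventional birds, and RPL19 at 0.50 ± 0.15 in organic and 0.54 ± 0.15 in conventional birds. All of these passed in edgeR under that scaling. On TMM scaling all 5 passed in organic birds, although RPL19 had an edgeR adjusted p of 0.0535 without organic liver replicate 1 and 0.0528 without organic muscle replicate 5. None of the 5 passed in conventional birds, where the values were 0.22 to 0.33, but without conventional muscle replicate 1 RPL14 and RPS6 did, and without conventional liver replicate 1 or muscle replicate 4 RPL14 did.

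Of the stalk genes, RPLP0 passed in both systems. RPLP0, the stalk base, was lower in liver on TMM scaling, at -0.50 ± 0.17 in organic and -0.66 ± 0.17 in conventional birds. RPLP1 was at -0.10 ± 0.16 in organic birds and passed at -0.43 ± 0.16 in conventional birds, and RPLP2 was at -0.05 ± 0.15 in organic birds and passed at -0.45 ± 0.15 in conventional birds. RPLP0 overlaps PXN on the same strand, and its counts may include reads of it. RPS27A, which is made fused to ubiquitin, was at 0.25 ± 0.17 in organic and -0.09 ± 0.17 in conventional birds and passed in neither.

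**Figure D4:**
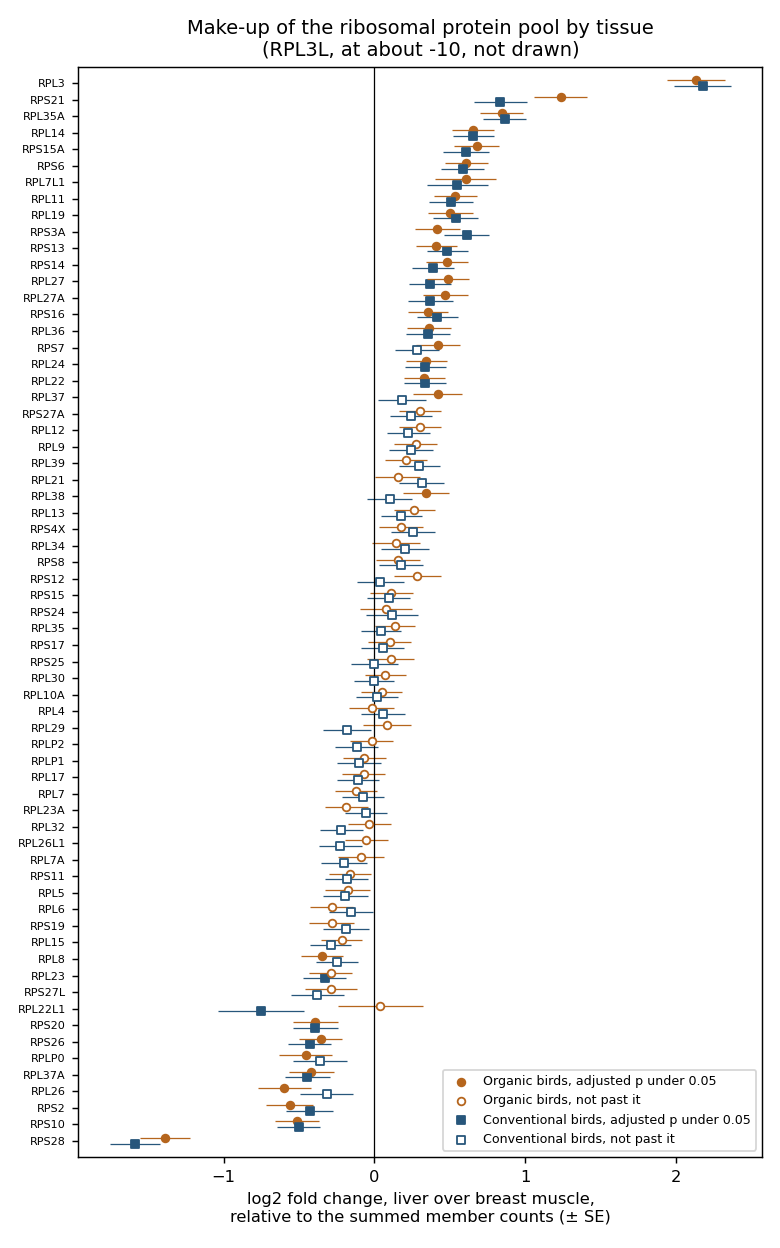
Log2 fold change, liver over breast muscle, of 65 of the 66 genes relative to their summed counts, with its SE, for organic (circles) and conventional birds (squares), filled where edgeR's adjusted p is under 0.05. RPL3 is above 2 and RPS28 under -1 in both systems, and RPL3L, at -10.60 in organic and -9.95 in conventional birds, is left out of the drawing.

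Within a group the genes varied together. With group means removed, the log2 CPM of each of the 61 genes other than the paralogues was compared with the mean of the rest over the 10 libraries of a tissue. The median r was 0.91 in liver and 0.92 in breast muscle, against -0.02 and -0.01 for all genes tested, and r was over 0.5 for 61 of 61 in liver and 59 of 61 in breast muscle, against 14.2% and 12.4% of all genes. Without conventional breast muscle replicate 1 the muscle median was 0.88. These r values describe genes that share libraries and scaling, and they carry no test.

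The whole spread of each gene within a group, shared or not, was modest in liver, where the median within-group SD was 0.18 log2 units. It was larger in breast muscle, at 0.28, against 0.33 for all genes in each tissue. All genes were not matched to the set by level. RPL3 was the steadiest gene in liver, with an SD of 0.07, and among the more variable in breast muscle, with 0.43. The exceptions in breast muscle were RPL26, with r = 0.05, and RPLP0, with 0.40, and without conventional replicate 1 these were at 0.30 and 0.15. Among the paralogues there, RPL26L1 followed the set at r = 0.99 and RPS27L at 0.79, whereas RPL22L1 was at 0.35, RPL3L at 0.13 and RPL7L1 at -0.16. Without conventional replicate 1 RPL26L1 was at 0.99, RPS27L at 0.85, RPL22L1 at 0.15, RPL3L at -0.02 and RPL7L1 at 0.06.

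**Figure D5:**
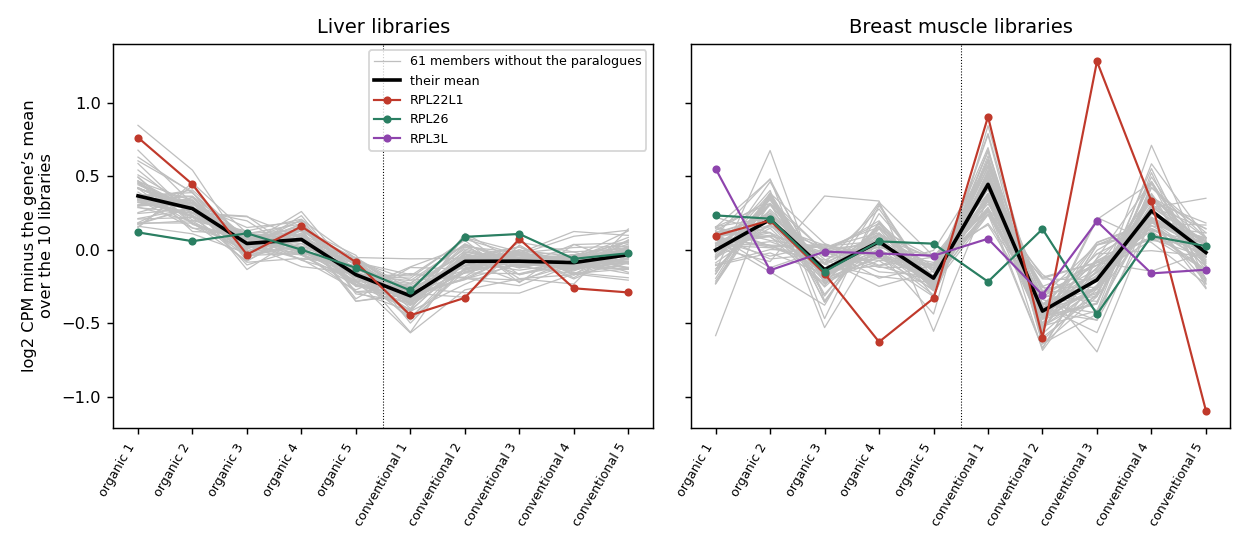
Log2 CPM of each gene minus its mean over the 10 libraries of the tissue, for liver (left) and breast muscle (right). Grey lines are the 61 genes without the paralogues, the black line is their mean, and the order of replicates on the axis has no meaning. The grey lines keep close to the black one, and RPL22L1, RPL26 and RPL3L depart from it in breast muscle.

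Genes around the ribosome were described from lists chosen by function. Of 66 mitochondrial ribosomal protein genes tested, 57 were above 0 in organic over conventional liver with a median of 0.15, and 43 in breast muscle with a median of 0.05. Of 37 ribosome biogenesis genes, 32 were above 0 in liver and 13 in breast muscle, with medians of 0.16 and -0.04. By edgeR 0 genes of any list passed in either tissue, as 0% of all genes did. The biogenesis genes with the smallest p in liver were AATF at 0.40 ± 0.15, NHP2 and GAR1, proteins of the particles that pseudouridylate ribosomal RNA, at 0.36 ± 0.15 and 0.42 ± 0.18, and GNL2, a nucleolar GTPase, at 0.28 ± 0.12. RRN3, the factor that brings RNA polymerase I to the ribosomal RNA genes, averaged 64.9 ± 9.14 CPM in organic and 47.5 ± 3.03 CPM in conventional livers (SD, n = 5 each), with a log2 fold change of 0.45 ± 0.12 (edgeR adjusted p = 0.625). Of 9 RNA polymerase I genes, 4 were above 0 in liver.

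Other messengers that start with the same pyrimidine tract, with translation factors, were split in liver. Of 18 such genes, 8 were above 0 in organic over conventional liver, with a median of -0.02, and 12 in breast muscle, with a median of 0.04. RACK1, a scaffold on the small subunit, was at 0.20 ± 0.13 in liver, and TPT1, a translationally controlled protein, at 0.26 ± 0.18. Of 17 growth control genes, 7 were above 0 in liver. MAF1, a repressor of RNA polymerase III, was at -0.30 ± 0.12, and LARP1, which binds the pyrimidine tract, at -0.35 ± 0.16. EIF4EBP3 was at 0.46 ± 0.20. The edgeR adjusted p was 0.653 for MAF1, LARP1 and EIF4EBP3 alike. In breast muscle SESN2 and SESN1, stress-induced inhibitors of mTORC1, were at -1.02 ± 0.33 and 0.72 ± 0.27. None passed.

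Between tissues many genes of these lists passed the test, as did many of all genes. Of the 18 genes listed for pyrimidine tract messengers and translation factors, 1 was higher and 15 lower in organic liver than in organic breast muscle, and 1 higher and 13 lower in conventional birds, against 39.1% higher and 35.6% lower of all genes in organic and 37.5% and 35.6% in conventional birds. The largest change of that list was in VIM, an intermediate filament gene, at -5.73 ± 0.24 in organic and -5.49 ± 0.23 in conventional birds. The gene higher in both was EEF1A1, which delivers aminoacyl-tRNA to the ribosome, at 4053 ± 746 CPM in organic liver and 681 ± 200.5 CPM in organic breast muscle, and TPT1 was at 882 ± 216 CPM in organic liver and 4269 ± 813 CPM in organic breast muscle (SD, n = 5 each). The log2 fold change was 2.57 ± 0.25 for EEF1A1 and -2.28 ± 0.21 for TPT1. Of the 17 growth control genes, 0 were higher and 11 lower in organic liver, among them MAF1 at -3.65 ± 0.19 and DDIT4, another mTORC1 inhibitor, at -4.38 ± 0.33, and 1 was higher and 13 lower in conventional liver. Of the 37 biogenesis genes, 15 were higher and 6 lower in organic liver, and 5 higher and 11 lower in conventional liver. RRP12 had the largest change of that list, at -2.97 in organic and -3.18 in conventional birds. Of the 66 mitochondrial ribosomal genes tested, 11 were higher and 22 lower in organic liver, and 9 higher and 26 lower in conventional liver. The growth control, biogenesis and mitochondrial counts stand against the same shares of all genes. These were 39.1% higher and 35.6% lower in organic birds, and 37.5% and 35.6% in conventional birds. RRN3 was higher in liver, at 1.24 ± 0.13 in organic and 0.80 ± 0.13 in conventional birds. FAU, which encodes the small subunit protein S30 fused to a ubiquitin-like protein, was higher as well, at 0.94 ± 0.16 in organic and 0.66 ± 0.16 in conventional birds. It was 1 of 2 genes tested from a list of ribosomal proteins outside the rule on symbols. The other went the opposite way, at -0.09 in organic birds, where it did not pass, and at -0.49 in conventional birds, where it did.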

How the data were processed

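RNA of 20 libraries was extracted with TRIzol (RNA integrity number of at least 7.7) and sequenced on an Illumina instrument, per the labels' protocols. HISAT2 2.0.5, DESeq2 1.20.0 and the chicken build GRCg6a are named in the submitters' processing notes, and which tool counted reads, with which strand setting, is not given there. The authors deposited a raw read count per gene, and FPKM, which equal the count per length divided by a library factor made of a size factor times the mean depth (100% of genes within a tolerance of 0.1%), so FPKM are already scaled between libraries.

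Counts were tested with edgeR 4.0.16 (R 4.3.3): TMM scaling, filterByExpr with a minimum count of 10, quasi-likelihood F test, two-sided, Benjamini-Hochberg adjustment over all genes tested, threshold 0.05. The SE of a log2 fold change was calculated as its absolute value over the square root of its F statistic. All 66 genes passed the filter in each fit. Organic over conventional was fitted within each tissue, and the liver over breast muscle contrasts and the difference between tissues over all 20 libraries. The share of a paralogue in its pair was tested by exact permutation. Library totals between 12699692 and 20488526 set the counting precision. No libraries were identical, the most alike pair of a group differing by a chi-square of 27.0 per degree of freedom.

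Alternatives were DESeq2 1.42.0, its size factors, total counts, scaling to the 66 genes' own total, no filter, limma 3.58.1 on log2(FPKM + 1) and on log2(FPKM + 0.1), other sample sets, a replicate block and each replicate left out. The members and lists were chosen with earlier results of these data known. Named were genes past the threshold or, with none, the 5 with the smallest p, the 8 most shifted to each tissue relative to the set's median, the 5 highest and 5 lowest levels, paralogues and their partners, stalk genes, RPS6, RPS27A and RACK1, and up to 4 genes per further list. Scripts were tested on simulated data.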

Additional observations from a re-analysis of the deposited data

Results flagged for a closer look

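Over 116 sets of 5 libraries (the share of counts, the paralogue shares and the named genes' FPKM in each group), 3 held a library whose gap to its nearest neighbour was over 0.71 of the whole range, the 95% limit of Dixon's test for 5 values. Chance gives about 1 such set in 20, or 5.8 of 116, so this number is no more than chance gives. RPL3L in organic breast muscle replicate 1 was at 997 FPKM, with the other 4 organic muscle libraries at 602 to 659 FPKM. RPL37A in organic breast muscle replicate 2 was at 164 FPKM, with the others at 118 to 126 FPKM. RPS15A in the same library was at 112 FPKM, with the others at 68.3 to 79.9 FPKM. That library also had the highest summed fibroblast markers of the muscle libraries, whose part in these values was not tested.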

How the results depend on the processing

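No gene of the set passed in either raising comparison, or in their difference between tissues, under any alternative run; most other values kept their direction and side of the threshold. On total counts alone 7 genes were above 0 in breast muscle (22 with TMM). On that scaling 21 were higher and 7 lower in organic liver than in organic muscle, against 6020 and 4664 of all genes. In conventional liver 8 were higher, against 5838 of all genes. Scaled to the set's own total, 39 were above 0 in liver with a median of 0.0180, and 41 in the difference between tissues. So scaled, 21 were higher in organic liver than in organic muscle, against 5491 of all genes. In conventional liver 18 were higher and 9 lower than in conventional muscle, against 6102 and 3897 of all genes. There 37 were above 0, with a median of 0.05 in place of -0.26. That scaling removes the common shift by construction. With limma on log2(FPKM + 0.1), 4 were higher in conventional liver, against 5445 of all genes. Same-numbered libraries of the systems correlated at -0.158 to 0.141 in liver and -0.163 to 0.0728 in breast muscle, and those of the tissues at 0.0940 to 0.198 in organic and 0.0252 to 0.173 in conventional birds, where 5 of 5 organic and 4 of 5 conventional libraries correlated best with their own number, a hint from the data and not the design. The numbers were not taken as pairs. With the replicate block, 4 genes were higher and 24 lower in conventional liver than muscle, against 5483 and 5139 of all genes. The liver median of organic over conventional was 0.24 with that block.

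Leaving out 1 library at a time, the genes above 0 in breast muscle numbered 6 to 56, the highest without conventional replicate 1. Those higher in organic liver than muscle numbered 8 to 18, against 5522 to 5630 of all genes, and those lower 7 to 13, against 5058 to 5166. In conventional birds those higher numbered 2 to 5, against 5295 to 5416 of all genes, and those above 0 numbered 11 to 25. The organic over conventional value of RPL3L in liver ran from -0.62 to 0.0115, above 0 without conventional replicate 4, and that of RPL3 in breast muscle from -0.27 to 0.00223, above 0 without conventional replicate 1. The share of counts was 2.31% in organic livers without mitochondrial genes in the total, and without the 50 most counted genes 3.55% in organic and 3.19% in conventional livers, 3.62% in organic and 3.91% in conventional breast muscle. Leaving out libraries for shares was chosen after seeing the data. In percentage points, organic minus conventional, RPS27L ran from -0.169 to 0.919 in liver and -0.342 to 0.736 in muscle, RPL22L1 from 2.03 to 4.55 in liver (exact permutation, adjusted p = 0.0454 without conventional replicate 3), RPL7L1 from -0.822 to 1.72 in muscle and RPL26L1 from -2.52 to -0.260 in muscle (adjusted p = 0.0397 by exact permutation without conventional replicate 2). Liver minus muscle, RPS27L ran from -5.34 to -4.27 in organic birds, and in conventional birds RPL22L1 ran from -18.2 to -8.04 (exact permutation, adjusted p = 0.0227 without muscle replicate 5), RPL7L1 from 4.26 to 6.81 (adjusted p = 0.0227 by exact permutation without muscle replicate 2) and RPL26L1 from -0.608 to 1.65. The causes were not tested. The few RPL3L counts in liver limit its values there.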
